A study of Homo sapiens with 6 samples.

Results

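The genes examined here are 10 urothelial lineage genes, the uroplakins UPK1A, UPK1B, UPK2 and UPK3A and the transcription factors GATA3, FOXA1, PPARG, ELF3, GRHL3 and TP63. They were chosen by name, and all 10 were found among the 56303 genes of the count table. The libraries are labelled as T24, a long-established human bladder cancer line, taken 48 h after transfection with siNC, a control siRNA, or siFBXL6, an siRNA against the F-box gene FBXL6. There were 3 libraries in each group, labelled as wild type and as FBXL6 knockdown, and all 6 carried the same batch label. The libraries were stranded mRNA libraries. Totals were 58646515, 60967902 and 56814946 counts in the libraries labelled siNC and 60968158, 60898556 and 60754015 counts in those labelled siFBXL6. The paper speaks of independent replicates for its measurements in general, but nothing in the sources says that the libraries of a group here came from separate cultures, so p-values measure the spread between these libraries, which may be technical. The paper uses siFBXL6-1 and siFBXL6-2 as names of different siRNAs, and the libraries are labelled siFBXL6-1 to siFBXL6-3. The sources do not say which siRNA each library received, so these 3 libraries may differ in it.

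The urothelium is a stratified lining whose surface umbrella cells carry plaques of uroplakin proteins. UPK1A and UPK1B are tetraspanins that pair with UPK2 and with UPK3A, and the assembled plaques make the apical membrane a barrier to urine. PPARG, with its partner RXRA, together with GATA3 and FOXA1, drives luminal genes, ELF3 and GRHL3 act in terminal differentiation, and TP63 marks basal cells.

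The target of the siRNA was examined before the lineage genes. FBXL6, on chromosome 8 of GRCh38 at 144355431 to 144359376, had 362, 414 and 398 counts under the label siNC and 398, 344 and 350 under the label siFBXL6. Both groups overlapped, and the log2 fold change was -0.13 (SE 0.088, edgeR adjusted p = 0.247). SLC52A2, which runs the opposite way, shares 31.7% of the exon bases of FBXL6. It had 548, 622 and 607 counts under the label siNC and 697, 664 and 653 under the label siFBXL6. The knockdown was therefore not visible in these counts, and groups are named below by their labels. GAPDH set the groups apart, at 188 ± 6.15 against 657 ± 4.15 CPM (counts scaled to the normalized library total, SD over 3 libraries), or 1.80 on the log2 scale. Mitochondrial genes took 5.82%, 6.28% and 6.29% of the counts under the label siNC and 5.33%, 5.30% and 5.45% under the label siFBXL6. The part of either in the differences below was not tested.

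The labelled cell type was compared with epithelial and mesenchymal genes, on the scale of CPM per kb of exon, called the per-length level from here on. T24 is generally described as a poorly differentiated line with mesenchymal features. In the libraries labelled siNC, the per-length level was 254 for KRT7, 109 for EPCAM, 102 for KRT5 and 19.2 for CDH1, all epithelial genes, and 3.02 for VIM, which encodes vimentin. Of the 12 simple epithelial genes listed, 9 lay above VIM, and OCLN at 2.94, RAB25 at 2.51 and ESRP2 at 2.11 lay below it, as did the basal keratin KRT14 at 0.491. Of the other 11 mesenchymal genes listed, 5 lay above VIM, FN1 at 140, SNAI2 at 44.2, CDH2 at 27.8, AXL at 19.4 and TGFBI at 13.8, and 6 below it, TWIST1 at 2.98, ZEB2 at 0.708, SPARC at 0.674, SNAI1 at 0.144, ZEB1 at 0.129 and TWIST2 at 0.0115. High EPCAM, KRT5 and KRT7 beside low VIM depart from the usual description of T24, whereas high FN1 and CDH2 do not. The paper also used another bladder cancer line, and it reports that its lines were authenticated by short tandem repeat profiling. The identity of the cells was not tested here. KRT7, KRT14 and the simple epithelial genes of this comparison were chosen after their values were seen.

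Of the 6 transcription factors, 5 lay above every uroplakin of the set in level, while GRHL3 lay below UPK2. By mean per-length level in the libraries labelled siNC, the order was TP63 (18.0 ± 0.268), PPARG (16.4 ± 0.341), ELF3 (4.36 ± 0.148), GATA3 (4.17 ± 0.217), FOXA1 (3.31 ± 0.0998) and UPK2 (1.28 ± 0.253), each with its SD over 3 libraries. GRHL3 followed at 0.0596 ± 0.0177, and UPK3A, UPK1B and UPK1A came last at 0.0164, 0.00512 and 0. These rest on few counts, and with 1 siNC library left out at a time UPK3A ran from 0.00828 to 0.0246 and UPK1B from 0 to 0.00769. The libraries of ELF3 and GATA3 overlapped, as did those of UPK3A with UPK1B and of UPK1B with UPK1A, while all other neighbours in this order were separate. PPARG was 3.77 times the level of ELF3, and UPK2 was 21.4 times that of GRHL3. The exon length used is that given in the count table, 7191 bases for ELF3 and 4046 for PPARG. The order and the ratios between genes depend on it. In CPM, without division by length, PPARG was at 66.5 and ELF3 at 31.3 under the label siNC. Among the 21298 genes with enough counts to be tested, TP63 lay at percentile 87.6 of the per-length level, PPARG at 86.5, ELF3 at 62.9, GATA3 at 62.0, FOXA1 at 57, UPK2 at 37.4 and GRHL3 at 2.81.

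**Figure D1:**
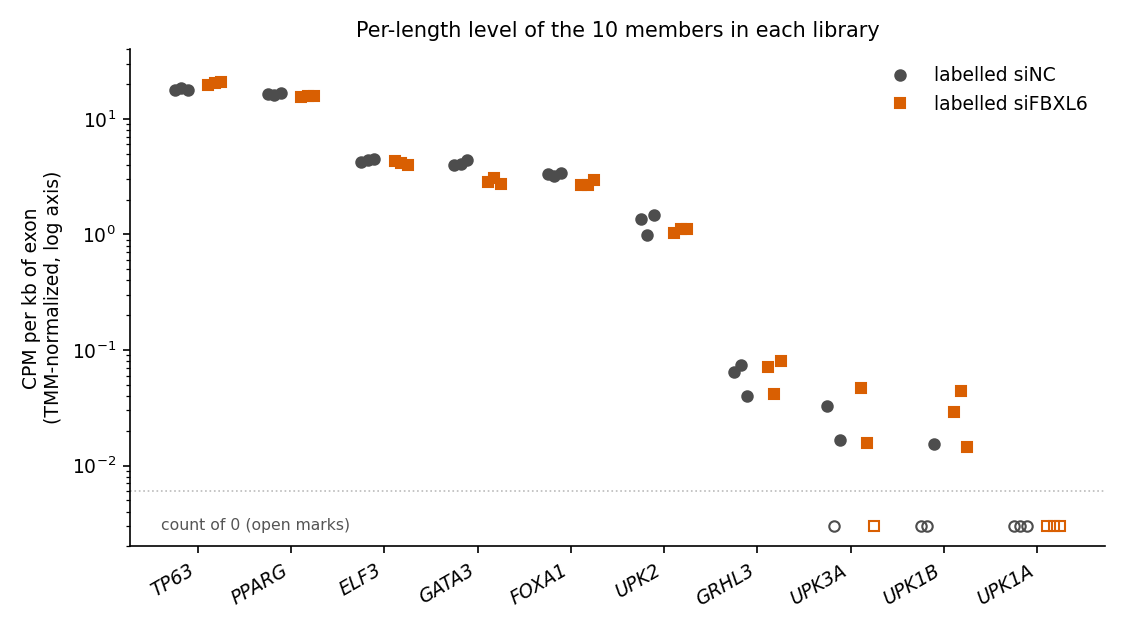
Per-length level (CPM per kb of exon, TMM-normalized, log axis) of the 10 genes in each of the 6 libraries, in the order of their mean under the label siNC. Grey circles are libraries labelled siNC, orange squares those labelled siFBXL6, and open marks under the dotted line are counts of 0. TP63 and PPARG stand highest, and UPK1A has no count in any library.

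Between the labels, 7 of the 10 genes could be tested, and 3 of them had an edgeR adjusted p under 0.05, GATA3 and FOXA1 lower and TP63 higher in the libraries labelled siFBXL6. This share, 42.9% of the genes tested in the set, lies near the 40.2% of all 21298 genes tested that passed, so the count says nothing particular about lineage genes. By direction, 20.5% of all genes tested were higher and 19.8% lower, against 1 and 2 of the 7. The 2 groups had no overlap for 4 of the 7 (57.1%), PPARG being the 4th, against 48.2% of all genes tested. The median log2 fold change of the 7 was -0.07, and that of all genes tested -0.01.

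The change of GATA3, a zinc finger factor that maintains luminal identity, had the largest size among the 7. It lies on chromosome 10 of GRCh38 at 8053604 to 8075198, plus strand. The counts were 761, 821 and 824 under the label siNC and 561, 603 and 533 under the label siFBXL6. All siFBXL6 libraries lay below all siNC libraries, with a gap wider than the spread within either group. Normalized, GATA3 fell by 30.8%, from 13.6 ± 0.706 CPM to 9.37 ± 0.576 CPM (SD over 3 libraries). Its log2 fold change was -0.53 (SE 0.068, 95% interval -0.67 to -0.39), with an adjusted p of 7.57e-08 from edgeR's quasi-likelihood test. An exact two-sided permutation test gave p = 0.1, the smallest that 3 libraries against 3 allow. A change of this size or larger in either direction was found for 13.0% of all genes tested. No exon of GATA3 in the table overlaps another gene.

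FOXA1, a forkhead factor that opens chromatin at luminal genes, fell as well. It lies on chromosome 14 at 37589984 to 37596059, minus strand. Its counts were 783, 787 and 773 in the siNC libraries and 641, 637 and 702 in the siFBXL6 libraries. The siNC libraries were nearly alike, and the highest siFBXL6 library, replicate 3, still lay below the lowest of them. Its level went from 13.2 ± 0.397 CPM to 10.9 ± 0.621 CPM (SD over 3 libraries), and the log2 fold change was -0.27 (SE 0.065, interval -0.40 to -0.14, edgeR adjusted p = 0.000937). TTC6, on the opposite strand, shares 16 exon bases with FOXA1, 0.402% of its exon length. TTC6 had 80, 84 and 72 counts under the label siNC and 48, 55 and 51 under the label siFBXL6, a log2 fold change of -0.64 (edgeR adjusted p = 0.00995).

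TP63, the p53-family factor of basal epithelial cells, moved the other way. It lies on chromosome 3 at 189631416 to 189897279, plus strand, and had 7806, 8428 and 7616 counts under the label siNC and 8872, 9236 and 9359 under the label siFBXL6. All siFBXL6 libraries were above all siNC libraries, by a small margin relative to the level. TP63 rose by 13.0%, from 134 ± 2 CPM to 152 ± 4.43 CPM (SD over 3 libraries). On the log2 scale this was 0.18 (SE 0.031, interval 0.11 to 0.24, edgeR adjusted p = 1.98e-05). The counts cover the whole gene, so the isoforms with and without the transactivation domain, which start at different promoters, cannot be told apart.

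**Figure D2:**
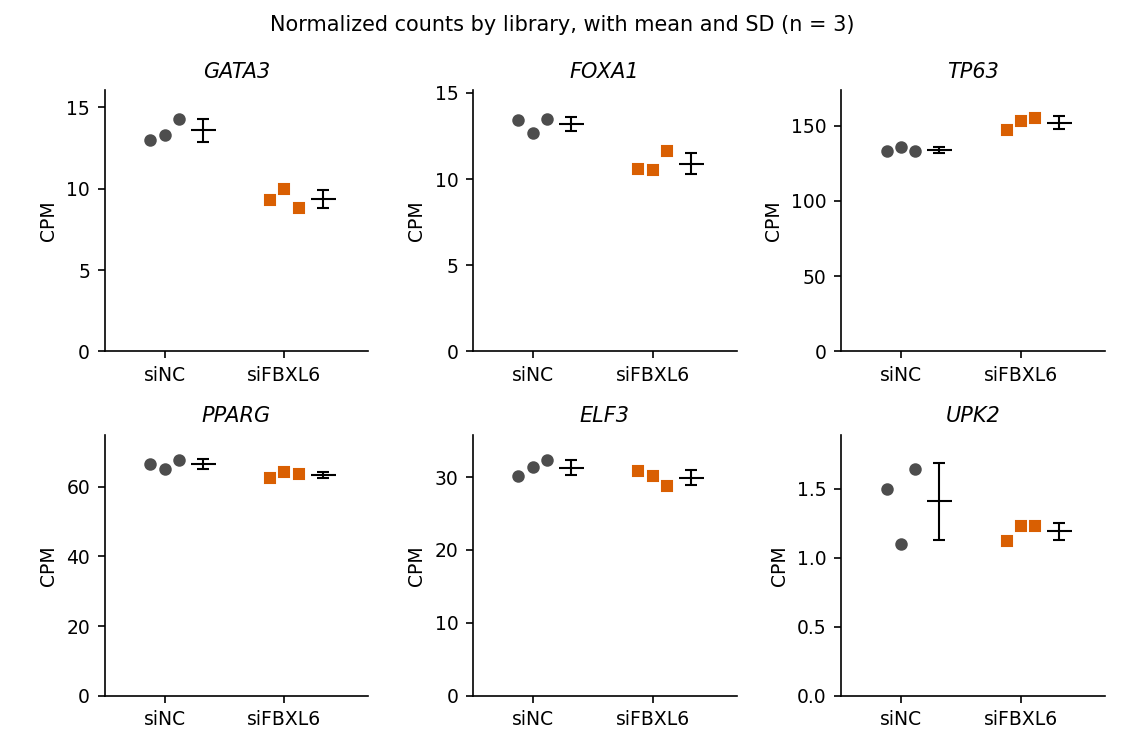
Normalized counts (CPM, axes from 0) of 6 genes in each library, grey circles for libraries labelled siNC and orange squares for those labelled siFBXL6, with mean and SD (n = 3) beside them. GATA3 fell from 13.6 to 9.37 CPM and FOXA1 from 13.2 to 10.9, TP63 rose from 134 to 152, and the groups of ELF3 and UPK2 overlap.

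PPARG, the nuclear receptor that heads the luminal programme, is on chromosome 3 at 12287368 to 12434356. It had 3895, 4019 and 3894 counts under the label siNC and 3786, 3886 and 3837 under the label siFBXL6. After normalization the siFBXL6 libraries lay just under the siNC libraries without overlap, at 62.6 to 64.3 against 65.1 to 67.8 CPM. The log2 fold change was -0.07 (SE 0.034, interval -0.13 to 0.00, edgeR adjusted p = 0.124) and missed the threshold. With library size alone in place of TMM it was -0.09 with an adjusted p of 0.0346, and over 13 alternatives the adjusted p ran from 0.0346 to 0.308.

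ELF3, an ETS factor of epithelial differentiation on chromosome 1 (202007945 to 202017188), had 1767, 1940 and 1857 counts against 1865, 1817 and 1736. The groups overlapped at 31.3 ± 1.07 CPM and 29.9 ± 1.03 CPM (SD over 3 libraries). The log2 difference was -0.07 (interval -0.16 to 0.02, edgeR adjusted p = 0.255). The interval ends well short of a fall of the size seen in GATA3. Of its exon bases, 9.23% are shared with a gene on the same strand named after its clone and 7.7% with another on the opposite strand. GRHL3, a grainyhead factor of surface differentiation on the same chromosome (24319322 to 24364482), was close to the limit of testing with 15, 18 and 9 against 17, 10 and 19 counts. Its libraries were mixed between the labels, and the interval of -0.75 to 0.96 around its log2 fold change of 0.11 could hide a change in either direction (edgeR adjusted p = 0.874). With 1 library left out at a time, its log2 fold change ran from -0.11 to 0.337.

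**Figure D3:**
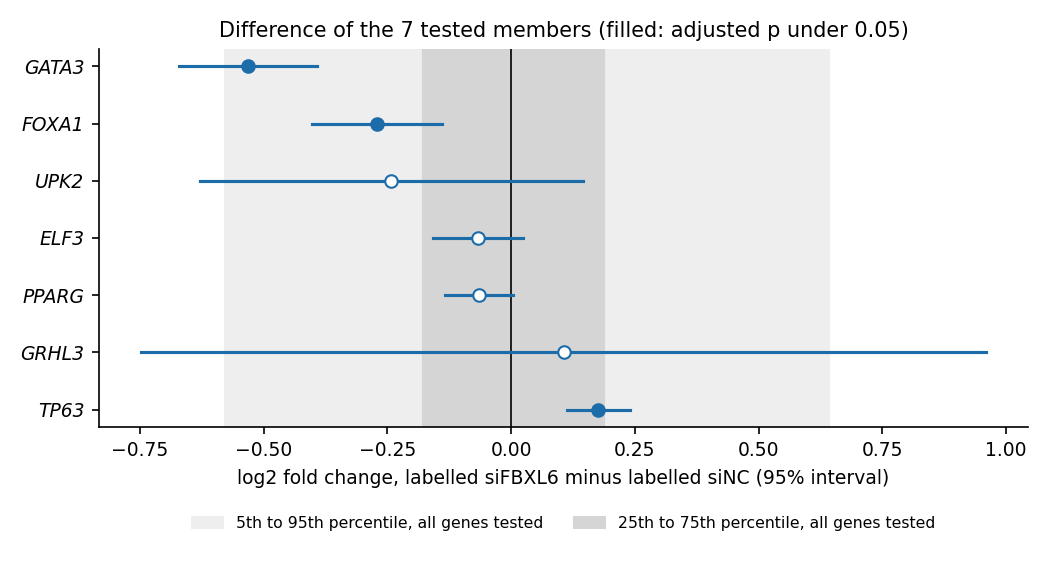
Log2 fold change (labelled siFBXL6 minus labelled siNC) of the 7 genes tested, with 95% intervals, filled where the adjusted p is under 0.05. Dark and light grey bands span percentiles 25 to 75 (-0.18 to 0.19) and 5 to 95 (-0.58 to 0.64) of all genes tested. GATA3 at -0.53 and FOXA1 at -0.27 lie outside the dark band and inside the light one, TP63 at 0.18 lies inside both, and UPK2 and GRHL3 have the widest intervals.

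Of the uroplakins of the set, UPK2 alone was tested. It is on chromosome 11 at 118925164 to 118958559 and had 88, 68 and 94 counts under the label siNC and 68, 74 and 74 under the label siFBXL6. The lowest siNC library, replicate 2, lay below every siFBXL6 library, so the groups overlapped. At 1.41 ± 0.279 CPM against 1.19 ± 0.0589 CPM (SD over 3 libraries), the log2 difference was -0.24 (interval -0.63 to 0.15, edgeR adjusted p = 0.34), and the interval includes both no change and a fall as large as that of GATA3. It was -0.397 without siNC replicate 2 and -0.124 without siNC replicate 3. BCL9L on the opposite strand shares 54 exon bases with UPK2 (4.88%) and had 4711 to 5830 counts per library. The use of strand in counting is not given in the sources used here, so some of the UPK2 counts may belong to BCL9L.

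UPK1A (chromosome 19, 35666516 to 35678483) had a count of 0 in all 6 libraries. With 3 counts taken as the limit that a count of 0 allows, its level was at most 0.0486 to 0.0522 CPM, depending on the library, if each count stands for a separate fragment. UPK1A-AS1, on the opposite strand, shares 258 exon bases with UPK1A (18.9%) and had no count in any library. UPK3A (chromosome 22, 45284982 to 45295874) had 2, 0 and 1 counts under the label siNC and 3, 1 and 0 under the label siFBXL6, at or under the floor of 3 counts in every library. UPK1B (chromosome 3, 119173517 to 119205153) had 0, 0 and 2 counts against 4, 6 and 2. The siFBXL6 libraries held more of these few counts, and replicate 3 was alike in both groups. As sums of 2 and 12 counts the ratio was 5.89 (exact binomial interval 1.31 to 54.1, counting error only). Small counts in the table were even far more often than odd, however, in 70.8% to 71.9% of the values from 1 to 20 in a library, and all counts of UPK1B were even. With counts taken as pairs, a count of 0 in UPK1A allows at most 0.0971 to 0.104 CPM. For UPK1B, taken as 1 and 6 pairs, the interval widens to 0.714 to 271 and includes no change. Both readings in pairs were chosen after seeing the data. On the same strand, a gene named after its clone shares 33 exon bases with UPK1B (1.46%) and had 4 counts, all in siFBXL6 replicate 1.

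Promoters of 8 of the 10 genes were found in the RefSeq table (GRCh38.p14), as 19 windows of 300 bases around annotated starts, and UPK2 and UPK3A were not matched. Stretches are printed for the genes that fell, GATA3 and FOXA1, for TP63, which rose, and for UPK1A, which had no count, to show their base composition. Each runs 5′ to 3′ from the start of the window to the base before the next exon of the gene in the count table, for GATA3 in the window nearest to its start there, with CpG dinucleotides in capitals. The start in the FOXA1 window lies 810 bases inside the gene as the count table has it, so its stretch lies between 2 exons of the table rather than before the gene.
GATA3, chr10:8053391-8053603, plus strand: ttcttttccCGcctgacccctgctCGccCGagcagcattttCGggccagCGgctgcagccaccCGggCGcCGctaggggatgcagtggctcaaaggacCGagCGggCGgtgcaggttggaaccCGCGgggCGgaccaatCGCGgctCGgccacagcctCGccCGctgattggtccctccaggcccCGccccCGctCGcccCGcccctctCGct
FOXA1, chr14:37595349-37595499, minus strand: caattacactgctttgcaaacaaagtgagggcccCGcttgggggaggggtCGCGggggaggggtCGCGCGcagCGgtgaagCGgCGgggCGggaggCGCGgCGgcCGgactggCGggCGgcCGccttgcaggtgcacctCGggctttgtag
TP63, chr3:189631139-189631415, plus strand: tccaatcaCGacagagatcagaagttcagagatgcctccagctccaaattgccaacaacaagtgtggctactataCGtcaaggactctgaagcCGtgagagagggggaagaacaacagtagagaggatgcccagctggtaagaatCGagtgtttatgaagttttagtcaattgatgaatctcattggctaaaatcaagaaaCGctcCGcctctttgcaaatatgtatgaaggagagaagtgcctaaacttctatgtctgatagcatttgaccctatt
UPK1A, chr19:35666267-35666515, plus strand: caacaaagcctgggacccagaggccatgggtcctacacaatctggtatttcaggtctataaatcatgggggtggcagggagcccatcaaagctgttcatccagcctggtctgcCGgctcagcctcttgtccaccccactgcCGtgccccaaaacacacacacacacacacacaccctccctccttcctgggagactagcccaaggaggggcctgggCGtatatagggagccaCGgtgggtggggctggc

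The GATA3 and FOXA1 windows held 36 and 34 CpG in 300 bases, at percentiles 88.7 and 85.9 of the 35116 promoter windows in the table, whose median was 14. The other GATA3 windows held 5 to 29 CpG. The TP63 window, of the start that gives the isoform with the transactivation domain, held 7, and that of UPK1A 4. The level of TP63 covers all its starts and cannot be assigned to this window. Letters of 4 motifs that do not overlap each other were searched on both strands. AGATAA, the letters bound by GATA factors, is in 10.3% of all promoter windows and was in 2 of the 19, 1 of GRHL3 and 1 of PPARG. AGGTCA, the core of nuclear receptor motifs, is in 13.8% of all windows and was in 3 of the 19, all of PPARG, and 2 of these 3 are nearly the same stretch. TGTTTAC, a forkhead motif (3.42% of all windows), and AACCGGTT, a grainyhead motif (0.134%), were in none of the 19. These matches describe letters in short windows and say nothing of binding.

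Relative to TP63 in the same library, where the scaling of libraries drops out, the lineage factors can be set side by side on the per-length scale. GATA3 was at 22.3%, 22.3% and 24.8% of TP63 under the label siNC and at 14.5%, 15.0% and 13.0% under the label siFBXL6. FOXA1 was at 18.8%, 17.5% and 19.0% against 13.5%, 12.9% and 14.0%. PPARG was at 91.3 ± 3.21% and 77.2 ± 1.56% of TP63 (SD, n = 3 each) and ELF3 was at 24.2 ± 0.952% and 20.5 ± 1.28%. Every siFBXL6 library was below every siNC library in all 4 ratios, which share the rise of TP63. By its own level, ELF3 overlapped between the labels, and PPARG did not overlap but missed the threshold. Of all genes tested, 48.2% had no overlap by their own level, and no such share was computed for ratios to TP63. These ratios were chosen after the values were seen and carry no test.

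By profile over the 6 libraries, the genes most like GATA3 among the 16193 genes that averaged 1 CPM or more were LIMCH1 and 2 genes named after their clones, with root mean square differences of 0.0365 to 0.0388 on the log2 scale after centring. Those most like TP63 were C15orf61, CLTC and ZNF845 (0.00952 to 0.0145), and those most like FOXA1 were IPO13, ADGRV1 and PPP1CC (0.0154 to 0.0219). With 1 contrast and 6 libraries, such likeness mainly reflects a fold change of similar size.

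Other genes of the same families were examined from fixed lists, which were drawn up with earlier results of these data known. Of 3 further uroplakin genes, 2 were in the table and both passed edgeR's test as lower, against 19.8% of all genes tested. UPK3B (39, 60 and 69 against 25, 34 and 16 counts) fell to 0.414 ± 0.149 CPM from 0.947 ± 0.268 CPM (SD over 3 libraries), which is -1.19 on the log2 scale (SE 0.29, edgeR adjusted p = 0.00115). The other, listed as UPK3BL, an older name of UPK3BL1, had 281, 269 and 270 against 251, 227 and 205 counts, with a log2 fold change of -0.29 (edgeR adjusted p = 0.0263). Its reads can be split with its near-identical copy UPK3BL2, and the call was lost with DESeq2 and without siNC replicate 1 or 3 or siFBXL6 replicate 2 or 3, over a range of adjusted p from 0.0157 to 0.151 in the 13 alternatives.

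Of 31 other transcription factors of urothelial and other epithelial cells, 28 were tested and 13 passed (46.4%, against 40.2% of all genes tested), 4 higher and 9 lower, with a median log2 fold change of -0.03. RXRA, the dimer partner of PPARG, had 5334, 5747 and 5425 counts against 4205, 4139 and 3982. Without overlap it fell to 68.0 ± 1.78 CPM from 92.9 ± 1.64 CPM (SD over 3 libraries), which is -0.45 on the log2 scale (SE 0.032, edgeR adjusted p = 1.65e-13). TBX3, a T-box repressor, fell by 0.53 on the log2 scale, GATA2, a paralog of GATA3, by 0.44, and the interferon regulatory factor IRF1 by 0.28. EHF, an ETS factor related to ELF3 and the highest of the list at a per-length level of 80.6 under the label siNC, rose by 0.15 (edgeR adjusted p = 8.55e-05). SPDEF, named after its values were seen, had 0, 5 and 0 counts under the label siNC and 13, 14 and 24 under the label siFBXL6.

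Luminal and basal markers frame these lineage factors. Of 24 luminal markers, 19 were tested and 10 passed (52.6%, against 40.2% of all genes tested), 4 higher and 6 lower (median log2 fold change -0.04). Without siNC replicate 1 or siFBXL6 replicate 1, 7 passed, 2 higher and 5 lower. KRT20, the umbrella cell keratin, had 2 counts in 1 library and 0 in the others. TMPRSS2 rose by 0.92 and XBP1, the highest of the list, by 0.20, while KRT13 fell by 0.38 and CD24 by 0.14. Of 18 basal markers, all were tested and 14 passed (77.8%), 12 higher and 2 lower, with a median of 0.26. CD44 rose by 0.76, LAMB3, the highest of the list, by 0.70 and ITGA6 by 0.52. The rise of TP63, 0.18, was smaller and lay within percentiles 25 to 75 of all genes tested. KRT5, a basal keratin, had 25905, 26555 and 25236 counts against 18821, 18811 and 18985 and went the other way, with a log2 fold change of -0.48 (SE 0.028, edgeR adjusted p = 7.84e-16). NGFR also fell, by 1.07, and KRT14, KRT16, KRT6C and DSC3 did not pass. These 5 were named after their values were seen.

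Squamous differentiation genes had the highest median among the lists, 0.84 over 19 tested of 25. Of these, 14 passed (73.7%, against 40.2% of all genes tested), 11 higher and 3 lower. The lists were chosen with earlier results of these data known, so this share describes these data and supports no wider reading. SCEL rose by 1.89, IVL by 1.57, S100A8 by 1.15 and DSC2 by 1.02, and S100A9, the highest of the list, by 0.31. The 3 that passed as lower were CNFN (-0.67), PPL (-0.16) and EVPL (-0.13). KRT1, DSG1, TGM3, CRNN, SPRR3 and SPRR2E had too few counts to be tested. These genes were named after their values were seen. Of 16 genes known to respond to PPARG in other tissues, 12 were tested and 8 passed (66.7%), 4 higher and 4 lower (median -0.09). FABP4, a fatty acid binding protein, fell to 108 ± 1.54 CPM from 197 ± 5.44 CPM (SD over 3 libraries) and FABP5, the highest of the list, by 0.44 on the log2 scale, while PLIN2 rose by 0.56 and ANGPTL4 by 1.97. The genes that passed moved both ways. PPARG itself missed the threshold with TMM and passed as lower in 2 of 13 alternatives, and its part in these changes was not tested.

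Markers of epithelial state and of other cells were counted beside these. Of 12 simple epithelial genes, all were tested and 10 passed (83.3%, against 40.2% of all genes tested), 6 higher and 4 lower (median 0.08). Among them KRT7, at percentile 99.3 of the per-length level, passed with a log2 fold change of only -0.08. The part of abundance in this share and in that of the basal list was not tested. CLDN1 rose by 0.44 and TJP1 by 0.41, while KRT8 fell by 0.29 and KRT19, the highest of the list by per-length level, by 0.15. Of 12 mesenchymal genes, 11 were tested and 7 passed (63.6%), 3 higher and 4 lower (median -0.03). VIM rose by 0.70 and AXL by 0.54, CDH2 fell by 0.59 and TGFBI by 0.21, and FN1, the highest, fell by 0.16. Of 7 fibroblast markers, 1 of 7 tested passed, COL1A1, which was also the highest and fell by 0.15 (median -0.24).

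Leukocyte markers summed to 7.71, 8.42 and 8.05 CPM under the label siNC and 20.8, 18.9 and 20.3 under the label siFBXL6. Of 7, 4 were tested and 1 passed (25%, against 40.2% of all genes tested), CD68 (log2 fold change 1.49), a lysosomal protein gene that was the most abundant of the list, while PTPRC was at 0.508 and 0.331 CPM and CD3E had 4 counts in 1 library and 0 in the others (median of the list -0.24). Endothelial markers summed to 1.80 to 2.17 CPM against 2.22 to 3.40, with 1 of 4 tested of 5 that passed, PECAM1 (log2 fold change 1.28, from 0.573 to 1.39 CPM), and VWF as the most abundant under the label siNC (median 0.25). The part of other cells in the changes of GATA3, FOXA1 and TP63 was not tested, and in bulk RNA fewer cells of a type and less RNA per cell cannot be told apart.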

How the data were processed

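The authors deposited 1 table of raw counts per gene for the 6 libraries, without normalization, on GRCh38. The study's methods name Trimmomatic and HISAT2, whereas the submitters' processing notes name fastp 0.23.0 and STAR. Both name featureCounts (Subread 1.5.1). The annotation release and strand setting are not given in the sources used here. Genes were filtered with filterByExpr, normalized with TMM and tested with edgeR 4.0.16 (R 4.3.3, limma 3.58.1) by the quasi-likelihood test on condition alone, with Benjamini-Hochberg adjustment over 21298 genes. Intervals are 95% intervals, and the floor is 3 counts in a library. Intervals of counts and floors cover counting error only. Label numbers were taken as replicate numbers.

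The genes and lists were chosen with earlier results of these data known. Genes named are the 10 members, FBXL6, GAPDH, genes whose exons overlap a member, the called genes with the 4 smallest adjusted p and the highest level of each list, and the 3 genes most like each of 3 members. Other genes named were chosen after their values were seen. Exon ends of the 10 genes matched GENCODE 44 on GRCh38 in 91.8% of 293 cases. Alternatives were DESeq2 1.42.0, other normalizations and filters, a stricter threshold, TPM, a replicate block and each library left out. The test was tried on simulated counts.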

Additional observations from a re-analysis of the deposited data

How the results depend on the processing

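Of 90 values of the 7 tested genes under the alternatives, 88 kept their side of the threshold. The exceptions were PPARG with upper-quartile normalization (log2 fold change -0.085, adjusted p = 0.0441) and with library size alone (-0.087, adjusted p = 0.0346), where it passed as lower. The cause was not tested. GATA3 (-0.579 to -0.49), FOXA1 (-0.318 to -0.245) and TP63 (0.154 to 0.20) passed in all 13 alternatives, and FBXL6 (-0.20 to -0.092) in none of 13. UPK2 (-0.397 to -0.124) passed in none of 13. GRHL3 (-0.11 to 0.337) was not tested when 10 counts were required in every library. Of 481 values of the genes that the naming rule took from the lists, 476 kept their side, and the 5 others were UPK3BL, which no longer passed. List genes named after their values were seen are not among these. Genes called ran from 7451 to 8707. With library size alone, 45.1% of called genes were higher, against 50.9%.

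No shared deviation of same-numbered libraries was seen, with correlations of -0.046, 0.0116 and -0.00684 over 16193 genes. This cannot show whether the libraries were paired, since technical spread could hide a shared deviation. With the replicate block, 8408 genes and 3 of the 10 lineage genes were called. Without a filter, UPK1B had an adjusted p of 0.337. Counted as pairs, a choice made after seeing the data, its ratio stayed at 5.89 with a wider interval that includes no change. TPM rescaled all levels alike, a change of unit (UPK2 from 1.28 to 3.69), and 6 genes were at 1 or more on either scale. UPK1A, UPK1B, UPK3A and GRHL3 had few or no counts, which limits what can be said of them, and the part of depth was not tested.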
